A study of Mus musculus with 10 samples.

Results

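Dendritic cell identity genes were followed across sorted mouse brain microglia, because CD11c, the surface protein used for the sort, is also a classical marker of dendritic cells. The set held 10 genes of the 49315 counted in each library: the receptors Flt3, Ccr7 and Xcr1, the lectins Clec9a and Clec10a, the transcription factors Zbtb46, Irf4, Batf3 and Mycl, and the BEACH-domain protein gene Wdfy4. They were chosen by name as genes that define dendritic cells or their subsets, and all 10 were found and passed the filter on low counts. The 10 RNA-seq libraries came from microglia, the resident macrophages of the brain, of wild-type C57BL/6 mice. At postnatal day 5 (P5) there were 3 libraries of CD11c+ and 3 of CD11c- cells, and at 9 months 2 of each subset. The SMART-Seq v4 amplification kit was stated for the 9-month libraries only, so age and library kit cannot be told apart, and levels were not tested between ages within a subset. Whether replicates were separate animals is not stated in the labels, and p-values therefore reflect only how far these libraries spread, possibly for technical reasons.

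Dendritic cells take up antigen, migrate to lymph nodes and prime T cells. Conventional dendritic cells grow under FLT3 ligand and are set apart from other myeloid cells by the transcription factor ZBTB46. The cDC1 subset needs BATF3, carries XCR1 and CLEC9A and cross-presents antigen on MHC class I, whereas the cDC2 subset depends in part on IRF4, and CCR7 guides mature cells of both subsets to lymph nodes. In the healthy brain such cells are known mainly from the meninges and the choroid plexus, and are rare in the parenchyma. Several of these genes are also made by macrophages. In bulk RNA of a sorted population, a few dendritic cells and low transcription of the same genes in many microglia cannot be told apart.

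Total counts ranged from 11892082 to 25483573 per library, except for P5 CD11c+ replicate 2 with 2619610. That library stood apart. Its correlation across genes with the remaining 5 P5 libraries was r = 0.585 to 0.670, and theirs with each other 0.942 to 0.992. Genes at 1 CPM (counts scaled to the library total) or above numbered 23033 in it and 12762 to 14735 elsewhere. P5 results are therefore given with and without it. Mitochondrially encoded protein genes took 0.771 to 2.79% of counts in the P5 CD11c+ libraries and 7.15 to 28.0% in the P5 CD11c- libraries, and the part of this difference in the results was not tested. Itgax, which encodes CD11c, had 250.2, 49.2 and 144.8 CPM in P5 CD11c+ cells against 33.1, 61.9 and 29.3 CPM in P5 CD11c- cells, and 28.0 and 20.7 CPM in 9-month CD11c+ cells against 5.80 and 3.21 CPM in 9-month CD11c- cells. Its log2 fold change was 2.08 at 9 months (adjusted p = 0.00397), and 1.63 at P5 (adjusted p = 0.622), where P5 CD11c+ replicate 2 lay below the highest CD11c- library.

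Clec10a, a galactose-binding lectin of the cDC2 subset and of macrophages, had the highest P5 fold change of the 10 members and shares a stretch of its sequence with its neighbour Mgl2, another galactose-binding lectin. Clec10a (ENSMUSG00000000318) lies on chromosome 11 from 70156197 to 70170834, and Mgl2 (ENSMUSG00000040950) from 70130329 to 70137550 on the same strand. Of the 2283 windows of 50 bases in the longest coding transcript of Clec10a, 242 (10.6%) also occur in transcripts of Mgl2. The longest coding run that both genes share without a mismatch has 183 bases. It is shown because reads from it can be assigned to either gene, and how the authors' counting treated such reads is not given in the sources used here. In Clec10a it takes coding bases 502 to 684 over exons 6 to 8 of 10 (GRCm38, plus strand, within chr11:70169822-70170189), and in Mgl2 coding bases 550 to 732 over exons 7 to 9 of 9 (within chr11:70136337-70136699).
Clec10a and Mgl2, shared coding run: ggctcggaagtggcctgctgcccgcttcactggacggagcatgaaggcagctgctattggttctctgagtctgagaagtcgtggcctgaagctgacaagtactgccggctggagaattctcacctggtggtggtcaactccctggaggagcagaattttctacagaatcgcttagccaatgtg

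Of the other members, Clec9a shared 4.19% of its windows with the adjoining gene Clec1b, whose exons overlap 184 bases of its own, Xcr1 shared 1.43% with various genes, and the remaining 7 shared none. RefSeq promoter windows (GRCm38.p6, 250 bases before to 50 bases after the start of the gene) were at hand for 8 of the 10 members, not for Clec10a and Ccr7. They were searched on both strands for the AP-1 and BATF motif TGANTCA, the interferon-stimulated response element (GAAA, a gap of 2 bases and GAAA again), the PU.1 motif GAGGAAGT and the PU.1-IRF composite element (GGAA, a gap of 2 bases and GAAA), because BATF3, IRF4 and PU.1 act through such sites. Over all 32851 promoter windows these motifs occurred in 7.81%, 3.44%, 3.20% and 2.72%. Among the 8 member windows there was a single match, TGACTCA in Zbtb46, starting 61 bases before the start. The windows of Irf4, which was called at both ages, and of Zbtb46 are shown, with the matched motif in capitals. The Zbtb46 window lies inside the span of the gene in the count files, at a start other than the outermost.
Irf4 (chr13:30748983-30749282, plus strand): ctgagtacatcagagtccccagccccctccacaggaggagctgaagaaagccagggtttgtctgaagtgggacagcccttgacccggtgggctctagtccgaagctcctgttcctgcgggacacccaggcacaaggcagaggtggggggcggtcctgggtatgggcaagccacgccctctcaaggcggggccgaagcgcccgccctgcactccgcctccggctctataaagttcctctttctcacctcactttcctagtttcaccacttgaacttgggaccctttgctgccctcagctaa
Zbtb46 (chr2:181424339-181424638, minus strand): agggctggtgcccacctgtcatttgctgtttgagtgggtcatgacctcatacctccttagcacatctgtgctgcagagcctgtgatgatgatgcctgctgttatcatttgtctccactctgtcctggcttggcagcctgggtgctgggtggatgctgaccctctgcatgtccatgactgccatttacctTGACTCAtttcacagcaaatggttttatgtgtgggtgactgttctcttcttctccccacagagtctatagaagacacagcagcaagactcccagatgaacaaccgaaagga

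At P5, Clec10a and Irf4 rose in CD11c+ cells, and none of the 10 members fell. These were 2 of the 10 members, beside 0.299% of the 15410 genes tested that rose (46 genes, and 0 fell; 668 higher and 409 lower had an unadjusted p under 0.05). When P5 CD11c+ replicate 2 was left out, 4 members rose (Clec10a, Irf4, Zbtb46 and Clec9a), beside 5.06% of 15841 genes. When any other P5 library was left out in its place, no member and no gene passed. By CPM, every P5 CD11c+ library lay above every P5 CD11c- library in 6 members, beside 11.7% of all genes tested. In the other 4 (Batf3, Ccr7, Wdfy4 and Mycl) the groups overlapped. Of the 6, Clec9a was separated only by 1.15 CPM (3 counts) in CD11c+ replicate 2 against 1.11 CPM in CD11c- replicate 2, too close to tell apart. The median log2 fold change of the 10 members was 1.57, and that of all genes tested 0.06.

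At 9 months, 5 members rose in CD11c+ cells (Flt3, Ccr7, Clec10a, Irf4 and Mycl) and none fell, beside 14.8% of the 15740 genes tested that rose (2333 genes) and 18.2% that fell (2869 genes). By CPM, both 9-month CD11c+ libraries lay above both CD11c- libraries in all 10 members, beside 49.4% of all genes tested. CPM lacks the scaling used for fold changes. The scaling factors over all 10 libraries were 0.913 and 0.891 in 9-month CD11c+ and 0.859 and 0.670 in 9-month CD11c- libraries. Divided by them, the Clec9a and Wdfy4 values of the 9-month subsets overlapped. The members had a median log2 fold change of 1.13, and all genes tested 0.02. The 9-month CD11c- libraries were rich in neutrophil RNA: 16 neutrophil markers summed to 2179 to 3122 CPM in the CD11c+ and 138912 to 188749 CPM in the CD11c- libraries. Markers of homeostatic microglia summed to 72668 to 77957 CPM in the CD11c+ and 21446 to 23836 CPM in the CD11c- libraries. When libraries were scaled to the summed counts of these 19 homeostatic markers, in place of the trimmed mean of M-values (TMM), the median of all genes moved to -1.33, and 2 members were called higher (Clec10a and Ccr7), beside 0.515% of all genes tested, and 2 lower (Batf3 and Wdfy4), beside 61.1%. Fold changes at 9 months are given on the TMM scale, and those that turned on the homeostatic scale are named beside them.

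**Figure D1:**
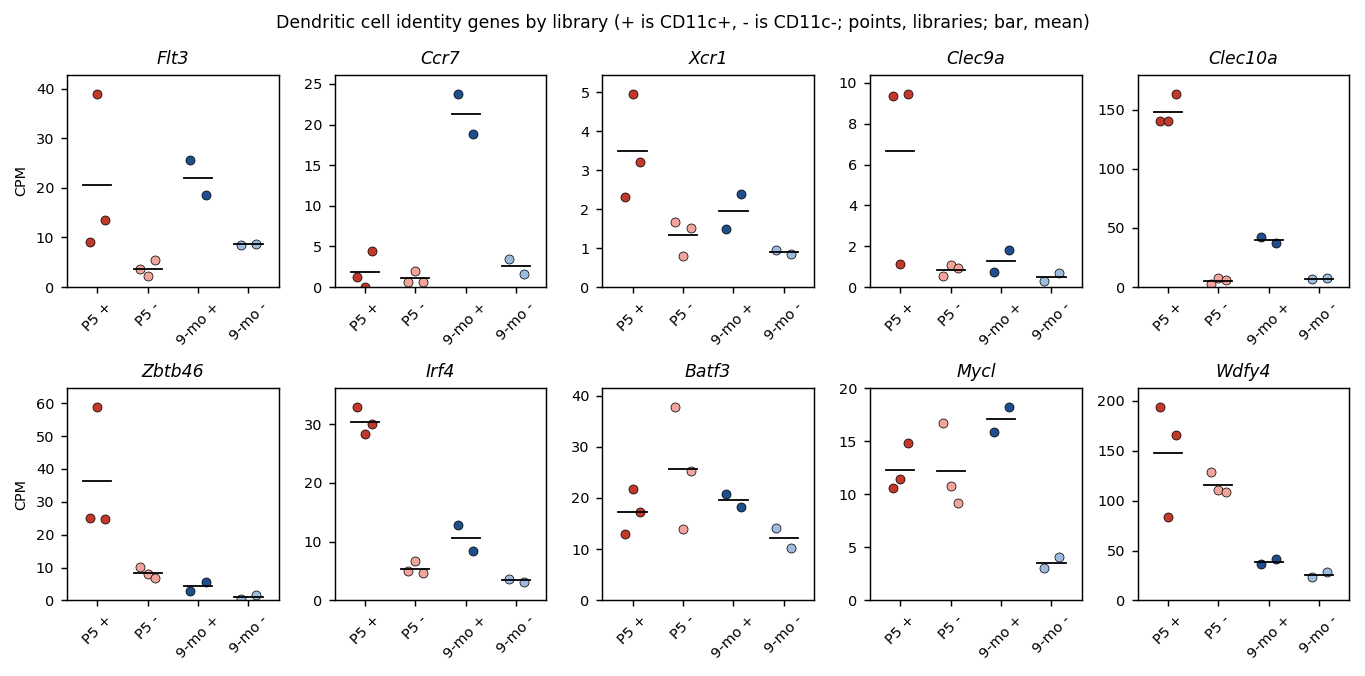
CPM of each member (vertical axes, each with its own range) in the 10 libraries, with P5 CD11c+, P5 CD11c-, 9-month CD11c+ and 9-month CD11c- libraries along the horizontal axis; points are libraries and bars group means. Clec10a was at 140.1 to 163.3 CPM in P5 CD11c+ libraries and at most 7.96 CPM in P5 CD11c- libraries, and Ccr7 was at 18.9 and 23.8 CPM in 9-month CD11c+ libraries and at most 4.38 CPM elsewhere.

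Among the receptors, Flt3 (ENSMUSG00000042817, chromosome 5, 147330741 to 147400489), the cytokine receptor that supports dendritic cell development, was higher in CD11c+ libraries at both ages. At P5 it had 9.16, 38.9 and 13.6 CPM in CD11c+ cells against 3.57, 2.29 and 5.38 CPM in CD11c- cells. The groups did not overlap, but replicate 2 was well above the other CD11c+ libraries, and the log2 fold change of 2.23 ± 0.69 (SE) did not pass (adjusted p = 0.432); without that library it was 1.42 ± 0.41 (adjusted p = 0.0738). At 9 months Flt3 had 25.6 and 18.5 CPM in CD11c+ cells against 8.53 and 8.68 CPM in CD11c- cells, a log2 fold change of 0.98 ± 0.27 (adjusted p = 0.0314), which was -0.39 on the homeostatic scale. Without 9-month CD11c+ replicate 1 or CD11c- replicate 1 the 9-month call was lost (adjusted p = 0.231 and 0.0748).

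Ccr7 (ENSMUSG00000037944, chromosome 11, 99144196 to 99155077), the receptor for the lymph node chemokines CCL19 and CCL21, had 0 to 82 counts per library at P5 and was higher in CD11c+ than in CD11c- cells at 9 months. It had 1.19, 0 and 4.38 CPM in P5 CD11c+ cells, against 0.674, 1.99 and 0.673 CPM in P5 CD11c- cells. The 0 in replicate 2 has an exact 95% Poisson interval that reaches 1.41 CPM, and the groups overlapped (log2 fold change 0.60 ± 1.18, adjusted p = 0.919). At 9 months it had 23.8 and 18.9 CPM in CD11c+ cells and 3.44 and 1.67 CPM in CD11c- cells. The 9-month log2 fold change of 2.70 ± 0.37 (adjusted p = 0.00213) was the highest of the 10 members at that age, and was 1.34 on the homeostatic scale (adjusted p = 0.0184). The genes of its ligands, Ccl19 and Ccl21a, had 0 counts in all 10 libraries, for which 3 counts would be 0.118 to 1.15 CPM. How reads that map to several genes were counted is not given, so 0 counts need not mean absence.

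Xcr1 (ENSMUSG00000060509, chromosome 9, 123852315 to 123862029), the chemokine receptor of cDC1 cells for XCL1, was low everywhere. P5 CD11c+ cells had 2.31, 4.96 and 3.21 CPM, and P5 CD11c- cells 1.68, 0.811 and 1.51 CPM. At 9 months it had 1.49 and 2.39 CPM in CD11c+ cells against 0.953 and 0.859 CPM in CD11c- cells. The CD11c+ libraries were above the CD11c- libraries at both ages, by a log2 fold change of 1.19 ± 0.63 at P5 (adjusted p = 0.800) and 0.72 ± 0.63 at 9 months (adjusted p = 0.431), and neither passed; the 9-month value was -0.62 on the homeostatic scale. Between 11 and 60 reads per library lay behind these values.

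Of the lectins, Clec9a (ENSMUSG00000046080, chromosome 6, 129408862 to 129424763), the receptor with which cDC1 cells bind actin exposed on dead cells, separated the P5 subsets in 2 of the 3 CD11c+ libraries. It had 9.35, 1.15 and 9.46 CPM in P5 CD11c+ cells against 0.539, 1.11 and 0.925 CPM in P5 CD11c- cells. Replicate 2, with 3 counts and an exact 95% Poisson interval of 0.236 to 3.35 CPM, lay at the level of the CD11c- libraries. The log2 fold change was 2.73 ± 0.92 with it (adjusted p = 0.517) and 3.27 ± 0.39 without it (adjusted p = 0.00517). At 9 months Clec9a had 0.746 and 1.84 CPM in CD11c+ cells against 0.290 and 0.678 CPM in CD11c- cells, a log2 fold change of 1.001 ± 0.892 that did not pass (adjusted p = 0.435) and was -0.32 on the homeostatic scale.

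Clec10a had 140.1, 140.1 and 163.3 CPM in P5 CD11c+ cells, against 2.29, 7.96 and 5.89 CPM in P5 CD11c- cells. The log2 fold change of 4.54 ± 0.55 (adjusted p = 0.0412) was the highest of the 10 members, and was 4.61 ± 0.49 without replicate 2 (adjusted p = 0.00341). At 9 months Clec10a had 42.5 and 37.3 CPM in CD11c+ cells against 6.50 and 7.32 CPM in CD11c- cells. It rose there by 2.15 ± 0.24 (adjusted p = 0.000854), and by 0.79 on the homeostatic scale (adjusted p = 0.0248), so it was called higher at both ages by TMM; at P5 on the homeostatic scale it did not pass (4.85, adjusted p = 0.0531).

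Its neighbour Mgl2 followed the same order of subsets. It had 107.6, 19.1 and 111.7 CPM in P5 CD11c+ cells against 1.28, 4.06 and 2.61 CPM in P5 CD11c- cells, and 113.7 and 107.7 CPM in 9-month CD11c+ cells against 15.6 and 16.6 CPM in 9-month CD11c- cells. The log2 fold changes were 4.68 ± 0.82 at P5 (adjusted p = 0.112; 5.18 ± 0.43 and adjusted p = 0.00110 without replicate 2) and 2.40 ± 0.19 at 9 months (adjusted p = 0.000200). On a scale per length (TPM, counts per length scaled to a common library total), the ratio of Clec10a to Mgl2 was 0.941, 5.30 and 1.06 in P5 CD11c+ libraries, 1.29, 1.42 and 1.63 in P5 CD11c- libraries, 0.270 and 0.2501 in 9-month CD11c+ libraries and 0.302 and 0.319 in 9-month CD11c- libraries. Mgl2 was thus the higher of the pair in all 4 libraries at 9 months, in both subsets, while at P5 the ratio was near 1 or above it. This shift runs with age and library kit together and was not tested.

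Among the transcription factors, Irf4 (ENSMUSG00000021356, chromosome 13, 30749226 to 30766927), needed for cDC2 function, had CPM values close together within each P5 group. It had 32.9, 28.2 and 30.0 CPM in P5 CD11c+ cells, against 4.92, 6.64 and 4.62 CPM in P5 CD11c- cells. By CPM all 3 CD11c+ libraries, replicate 2 included, were close to each other and far above the CD11c- libraries. Per length, replicate 2 was lower, at 8.49 TPM against 21.4 and 18.5 TPM in the other P5 CD11c+ libraries and at most 2.79 TPM in P5 CD11c- libraries. Irf4 rose by 2.29 ± 0.29 (adjusted p = 0.0431, and 2.66 with adjusted p = 0.0617 on the homeostatic scale). At 9 months Irf4 had 12.8 and 8.42 CPM in CD11c+ cells against 3.65 and 3.21 CPM in CD11c- cells. It rose by 1.26 ± 0.35 (adjusted p = 0.0333), which was -0.11 on the homeostatic scale, and the 9-month call was lost without CD11c+ replicate 1 (adjusted p = 0.268) or CD11c- replicate 1 (adjusted p = 0.0572).

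Zbtb46 (ENSMUSG00000027583, chromosome 2, 181387762 to 181459426), the factor that marks conventional dendritic cells and is also made by endothelial cells, had 25.2, 58.8 and 24.6 CPM in P5 CD11c+ cells against 10.04, 7.96 and 6.81 CPM in P5 CD11c- cells. No CD11c- library reached a CD11c+ library. The log2 fold change was 1.95 ± 0.41 (adjusted p = 0.174), and 1.43 ± 0.17 without replicate 2 (adjusted p = 0.00461). At 9 months it had 2.98 and 5.68 CPM in CD11c+ cells against 0.331 and 1.58 CPM in CD11c- cells, a log2 fold change of 1.76 ± 0.80 (adjusted p = 0.141). Of the endothelial markers, 1 of 6 tested passed at P5 (Egfl7, at 35.4, 51.9 and 41.9 CPM in CD11c+ and 2.95 to 5.12 CPM in CD11c- libraries), and without replicate 2 Egfl7 rose and Slco1a4 fell, with a list median of -0.37. At 9 months 2 of 4 tested rose (Kdr and Pecam1). All 10 summed to 73.6, 195.8 and 81.2 CPM in P5 CD11c+ and to 47.8 to 52.4 CPM in P5 CD11c- libraries, highest in P5 CD11c+ replicate 2, and to 36.6 and 43.1 CPM in 9-month CD11c+ and 14.1 to 15.9 CPM in 9-month CD11c- libraries; their part in the Zbtb46 values was not tested. The defining endothelial claudin Cldn5 had 0 counts in every library except P5 CD11c+ replicate 2, where it was at 1.91 CPM.

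Batf3 (ENSMUSG00000026630, chromosome 1, 191097847 to 191108945), the factor required for cDC1 development, was the only member whose P5 fold change lay below 0 by more than its SE. It had 13.04, 21.8 and 17.2 CPM in P5 CD11c+ cells and 37.7, 13.9 and 25.2 CPM in P5 CD11c- cells, and the groups overlapped (log2 fold change -0.73 ± 0.38, adjusted p = 0.794). At 9 months it had 20.8 and 18.2 CPM in CD11c+ cells against 14.2 and 10.3 CPM in CD11c- cells, a log2 fold change of 0.31 ± 0.24 that did not pass (adjusted p = 0.370). On the homeostatic scale that value was -1.05 (adjusted p = 0.00784).

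Mycl (ENSMUSG00000028654, chromosome 4, 122995652 to 123002485), the MYC relative that supports dendritic cell proliferation, passed at 9 months and not at P5. It had 10.6, 11.5 and 14.9 CPM in P5 CD11c+ cells against 16.7, 10.8 and 9.17 CPM in P5 CD11c- cells, and these groups overlapped throughout (log2 fold change -0.14 ± 0.32, adjusted p = 0.931). At 9 months it had 15.9 and 18.2 CPM in CD11c+ cells against 3.02 and 4.11 CPM in CD11c- cells. The 9-month log2 fold change was 1.87 ± 0.32 (adjusted p = 0.00559), and 0.51 on the homeostatic scale (adjusted p = 0.221).

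Wdfy4 (ENSMUSG00000051506, chromosome 14, 32959547 to 33185508), which encodes a protein needed for cross-presentation by cDC1 cells, was the most abundant member per library in P5 CD11c- cells by CPM. It had 193.8, 84.0 and 165.7 CPM in P5 CD11c+ cells against 129.0, 110.3 and 108.9 CPM in P5 CD11c- cells, with replicate 2 below all CD11c- libraries. At 9 months it had 36.4 and 41.1 CPM in CD11c+ cells against 23.0 and 28.2 CPM in CD11c- cells. Its log2 fold changes of 0.16 ± 0.33 at P5 (adjusted p = 0.924) and 0.21 ± 0.22 at 9 months (adjusted p = 0.513) did not pass, and the 9-month value was -1.14 on the homeostatic scale (adjusted p = 0.00487).

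**Figure D2:**
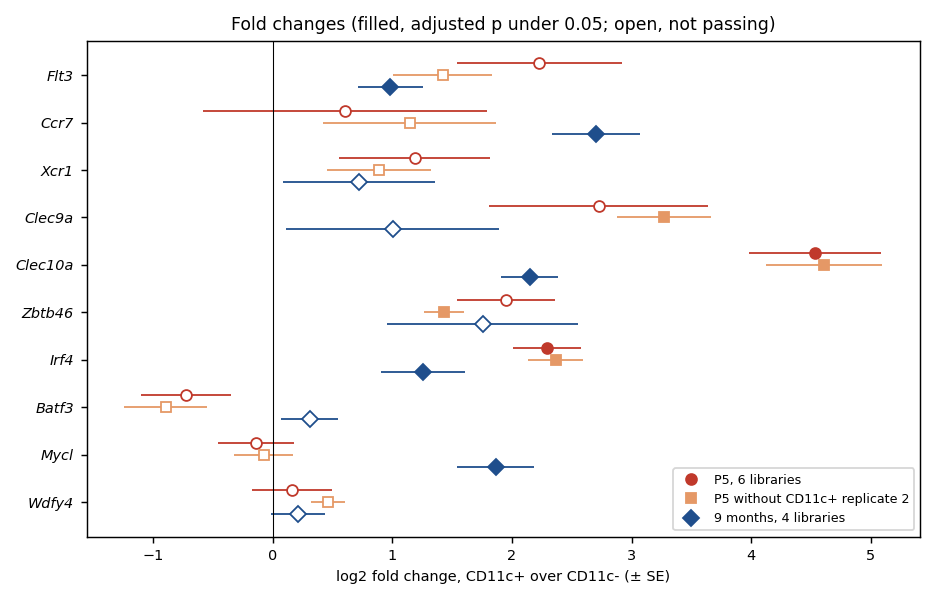
Log2 fold change of CD11c+ over CD11c- (horizontal axis) for each member, with its SE, at P5 with all 6 libraries, at P5 without CD11c+ replicate 2, and at 9 months; filled marks passed an adjusted p of 0.05. Clec10a and Irf4 are filled in all 3 fits, Zbtb46 and Clec9a only at P5 without replicate 2, and Flt3, Ccr7 and Mycl only at 9 months.

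Per length, Clec10a was the highest member in CD11c+ cells of both ages. In P5 CD11c+ cells Clec10a led with 126.7 ± 51.0 TPM (SD, n = 3), above Wdfy4 at 37.8 ± 23.6 TPM without overlap. Batf3, Irf4, Zbtb46, Mycl, Flt3, Clec9a, Ccr7 and Xcr1 followed, from 25.2 ± 6.00 down to 1.75 ± 0.29 TPM, and each overlapped with its neighbour in this order. In P5 CD11c- cells Batf3 (36.4 ± 24.1 TPM) and Wdfy4 (24.0 ± 7.63 TPM) overlapped with each other and stood above Mycl (6.79 ± 3.73 TPM), whereas Clec10a came after Mycl with 3.71 ± 1.55 TPM. In 9-month CD11c+ cells Clec10a (36.6 ± 3.75 TPM), Batf3 (32.5 ± 3.34 TPM) and Ccr7 (28.7 ± 4.95 TPM; SD, n = 2 each) formed an overlapping group above Mycl at 11.2 ± 0.96 TPM. Zbtb46, Xcr1 and Clec9a were the lowest there, at 1.35, 1.16 and 1.04 TPM, and overlapped. In 9-month CD11c- cells Batf3 led with 13.7 ± 4.27 TPM, clear of Wdfy4 at 4.27 ± 0.22 TPM and Clec10a at 4.19 ± 0.04 TPM, and Xcr1, Clec9a and Zbtb46 were the lowest, at 0.36 ± 0.06, 0.25 ± 0.12 and 0.19 ± 0.16 TPM.

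The difference between ages of the fold change was tested as an interaction over all 10 libraries, where a kit effect on only one subset would enter too. No member passed, beside 1.86% of the 19555 genes tested (364 genes; 1318 higher and 1833 lower had an unadjusted p under 0.05). DESeq2 called 2 members, Clec10a and Mycl, beside 12.1% of these genes. With scaling to homeostatic markers 3 members, Clec10a, Irf4 and Wdfy4, were called with a lower fold change at 9 months than at P5, beside 30.8% of the genes. Clec10a had the 9-month fold change lower than the P5 one by 2.22 on the log2 scale (difference -2.22 ± 0.69, adjusted p = 0.152), and Mycl had it higher by 2.18 ± 0.53 (adjusted p = 0.0754). Without P5 CD11c+ replicate 2 these differences were -2.36 (adjusted p = 0.0223) and 2.05 (adjusted p = 0.0104), and these 2 members passed, beside 19.1% of 18348 genes. For the other members the differences ran from -1.66 (Clec9a) to 2.17 (Ccr7), with adjusted p of 0.251 or more. Ccr7, which was called at 9 months only, is therefore not shown to differ between ages (adjusted p = 0.495).

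Genes of the same pathways were counted from lists. Of 11 genes of the MHC class II pathway, which serves antigen presentation to CD4 T cells, all 11 rose at 9 months (median log2 fold change 1.14). None passed at P5 (median 0.58, and 5 rose without replicate 2). Not all of these encode class II chains, as the list also held Cd74, Ciita and Ctss. H2-Ab1, the class II beta chain, had 2079 and 1904 CPM in 9-month CD11c+ cells against 718.6 and 660.9 CPM in 9-month CD11c- cells, a log2 fold change of 1.15 ± 0.14 (adjusted p = 0.00125). On the homeostatic scale the class II median at 9 months was -0.22, with 0 higher and 4 lower, beside 0.515% and 61.1% of all genes tested. The median of all genes was -1.33 there, against 0.02 by TMM. A change of scale shifts all genes of a library alike. The distance between the class II median and that of all genes is therefore kept by construction, and decides nothing. H2 genes can share reads among themselves, and their counts are uncertain to that extent.

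Of 18 other genes of conventional dendritic cells tested at 9 months, 3 rose (Dpp4, Slamf7 and Traf1) and 9 fell, with a median of -0.99. Those that fell most clearly were Spint2 (-4.08), Pstpip1 (-3.002), Jaml (-3.77) and Adam19 (-3.21), all with adjusted p of 0.00123 or less; Jaml and Pstpip1 are also expressed by neutrophils. At P5 none of 20 passed (3 rose without replicate 2, among them Adam19 by 1.81, adjusted p = 0.0353). For Adam19, a membrane metalloprotease, the difference between ages itself passed (-4.80 ± 0.66, adjusted p = 0.0135).

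Of 12 further cDC1 genes tested at 9 months, 5 rose and 2 fell. The adhesion molecule Cadm1 rose by 1.60 and the RNA sensor Tlr3 by 1.48, while Ly75, the endocytic receptor DEC-205, fell by 4.95 and the factor Nfil3 fell by 3.37. Irf8, the master factor of cDC1 cells, also made by microglia, rose by 1.12 ± 0.23 (adjusted p = 0.0113). On the homeostatic scale 0 of these 12 rose and 4 fell, beside 0.515% and 61.1% of all genes tested. The list median there was -0.31, against -1.33 for all genes, and Irf8 was at -0.25. At P5 none passed (1 rose without replicate 2, Rab7b by 1.47).

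Of 11 further cDC2 genes tested at 9 months, 5 rose and 3 fell. The lectin Cd209a had 193.3 and 192.8 CPM in 9-month CD11c+ cells against 21.2 and 18.0 CPM in 9-month CD11c- cells, a log2 fold change of 2.93 ± 0.16 (adjusted p = 5.25e-05). On the homeostatic scale 2 of the 11 were called higher, Cd209a (1.57) and Mgl2 (1.04), and 6 lower. Of all genes tested, 0.515% were higher and 61.1% lower there, and the list median was -0.98 against -1.33 for all genes. At P5 none of 11 passed (1, Mgl2, rose without replicate 2). The inhibitory lectin Clec12a fell by 3.14 and the short-chain fatty acid receptor Ffar2 fell by 5.71, and both are also expressed by neutrophils and monocytes.

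Of 23 genes of mature, migrating dendritic cells tested at 9 months, 8 rose and 1, Samsn1, fell. Ccl22, a chemokine that attracts regulatory T cells, had 7.73 and 7.91 CPM in 9-month CD11c+ cells, from 382 reads, against 0 and 0.136 CPM in 9-month CD11c- cells, from 3 reads, a ratio of 120.5 with an exact 95% counting interval of 40.9 to 586.9. Its relative Ccl17 had 119 reads in the CD11c+ and 2 reads in the CD11c- libraries (ratio 56.3, interval 15.2 to 470.3), and the calcium channel subunit gene Cacnb3 87 reads and 1 read (ratio 82.3, interval 14.4 to 3289); these 2 genes were picked after their values were seen. By CPM, Ccl22, Ccl17 and Cacnb3 were higher in both 9-month CD11c+ libraries than in any other library. The costimulatory ligand Cd86 rose by 1.47 and the granzyme inhibitor Serpinb9 by 1.45, but these were at 0.11 and 0.09 on the homeostatic scale. There 3 genes of the list rose and 8 fell, beside 0.515% and 61.1% of all genes tested. The list median on that scale was -0.79, against -1.33 for all genes. At P5 none of 18 passed (2 rose without replicate 2).

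Of 13 plasmacytoid dendritic cell genes tested at 9 months, 6 rose and 2 fell. The lectin Siglech rose by 1.24, the factor Tcf4 by 1.15, the T cell inhibitory receptor Lag3 by 1.32 and the antiviral tether Bst2 by 1.34. Each of these 4 lay between -0.21 and -0.03 on the homeostatic scale. There 0 of the 13 rose and 5 fell, with a list median of -0.94 against -1.33 for all genes. Siglech is also a microglial gene. At P5 none of 12 plasmacytoid genes passed, and without replicate 2, 1 of 13 rose and 1 fell. Of 7 relatives of the member factors, Irf5 rose by 1.05, Irf8 by 1.12 and Myc by 0.78 at 9 months. None of the 6 tested at P5 passed (1 of 7 rose without replicate 2). On the homeostatic scale none of the 7 relatives rose at 9 months and 4 fell, beside 0.515% and 61.1% of all genes tested. The median of the relatives there was -0.58. In the list of ligands and GM-CSF receptor genes, the receptor chains Csf2ra and Csf2rb fell at 9 months by 1.37 and 0.75, and Flt3l, the gene of the FLT3 ligand, stayed between 3.78 and 16.8 CPM in all libraries without passing.

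**Figure D3:**
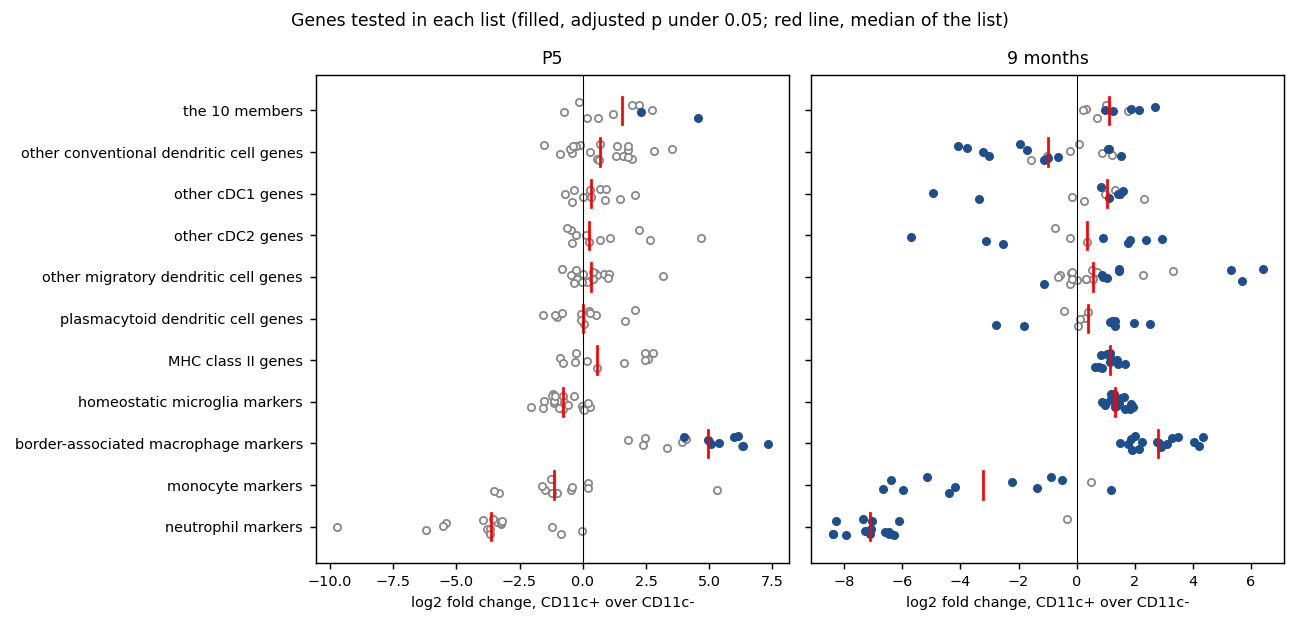
Log2 fold change of CD11c+ over CD11c- (horizontal axes) for the genes tested in each list, at P5 with 6 libraries and at 9 months with 4 libraries; filled points passed an adjusted p of 0.05 and red lines are list medians. At 9 months the 11 MHC class II genes are all filled and above 0, the other conventional dendritic cell genes have their median at -0.99, and the neutrophil markers at -7.11.

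Levels of markers of other cells are given beside those of the members, and their part in these results was not tested. Border-associated macrophages, which line the meninges and vessels, were marked by 16 genes, of which 8 rose at P5 (15 without replicate 2) and 16 at 9 months. The list summed to 16213 to 18937 CPM in P5 CD11c+ and 1572 to 3071 CPM in P5 CD11c- libraries, and to 1863 to 1928 CPM in 9-month CD11c+ and 242.3 to 306.7 CPM in 9-month CD11c- libraries, and its leading genes Stab1, Maf, Mrc1 and Dab2 averaged 4553, 3666, 3291 and 2804 CPM in P5 CD11c+ cells. None of these 16 markers was at 0 in all libraries of a group. The 10 members together summed to 389.4 to 446.4 CPM in P5 CD11c+ and 163.7 to 207.1 CPM in P5 CD11c- libraries, and to 170.6 to 183.0 CPM in 9-month CD11c+ and 63.9 to 66.6 CPM in 9-month CD11c- libraries.

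Of 12 monocyte markers, 1 rose and 10 fell at 9 months, with sums of 669.0 to 830.6 CPM in CD11c+ and 13557 to 15843 CPM in CD11c- libraries, led by Chil3. At P5 the monocyte list summed to 1652 to 4107 CPM in CD11c+ and 373.8 to 1292 CPM in CD11c- libraries and none passed. This sum was carried by F13a1 (means of 1818 CPM in CD11c+ and 38.7 CPM in CD11c- cells), whereas Chil3 (3.22 and 33.6 CPM), Ly6c2 (5.17 and 42.9 CPM) and Hp (42.3 and 108.1 CPM) had lower means in CD11c+ cells, and the list median of the log2 fold change was -1.13. Without replicate 2, F13a1 rose, and Ly6c2 and Vcan fell. Neutrophil markers at P5 summed to 420.7 to 608.0 CPM in CD11c+ and 1165 to 3820 CPM in CD11c- libraries (0 passed; 13 of 16 fell without replicate 2), and the elastase gene Elane had 0 counts in the P5 CD11c+ libraries. T cell markers summed to 70.4 to 124.4 CPM in P5 CD11c+ and 18.4 to 32.2 CPM in P5 CD11c- libraries. At 9 months these sums were 28.1 to 31.8 CPM in CD11c+ and 16.8 to 17.6 CPM in CD11c- libraries. Of these markers Cd4 had the highest mean in P5 CD11c+ cells, 44.5 CPM, against 1.96 CPM in P5 CD11c- cells. Without replicate 2 the T cell list had a P5 median log2 fold change of -0.10, and 1 of 12 rose. B cell markers summed to 198.9 to 353.5 CPM in CD11c+ against 310.8 to 580.1 CPM in CD11c- libraries at P5. At 9 months they summed to 697.4 to 736.8 CPM against 322.8 to 429.8 CPM. These 9-month sums came mostly from Ighm (means of 661.9 and 335.7 CPM), and 2 of 7 B cell markers rose and 3 fell. The B cell factor Pax5 had 0 counts in the 9-month CD11c- libraries. Neuron markers summed to 6.59, 145.8 and 7.27 CPM in the P5 CD11c+ libraries and to 15.0 to 22.5 CPM in the P5 CD11c- libraries, and were highest in the library that stood apart.

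**Figure D4:**
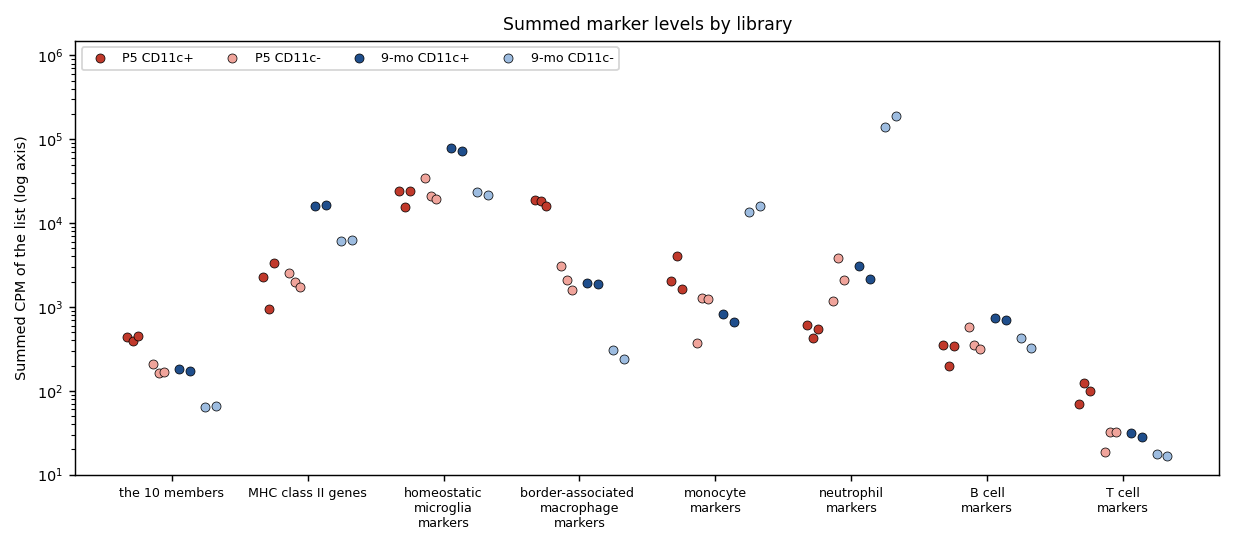
Summed CPM (vertical log axis) of the 10 members and of marker lists in each of the 10 libraries (points). The members and the border-associated macrophage markers are higher in CD11c+ than in CD11c- libraries at both ages, and the neutrophil markers reach 138912 to 188749 CPM in the 9-month CD11c- libraries.

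Profiles over the 10 libraries were compared for the 3 members with the highest mean CPM, using the root mean square difference of centred log2(TMM-scaled CPM + 0.5) over 19555 genes. The genes nearest to Clec10a were Cd38, an NAD-consuming ectoenzyme (0.43), the serpin gene Serpinb8 (0.61) and F830016B08Rik (0.69), where the median over all genes was 2.12. Cd38 had 136.0, 81.3 and 166.7 CPM in P5 CD11c+ cells against 1.82, 5.60 and 3.03 CPM in P5 CD11c- cells, and 43.0 and 50.2 CPM in 9-month CD11c+ cells against 7.70 and 9.45 CPM in 9-month CD11c- cells. Nearest to Wdfy4 were Heca (0.15), Gabpb2 (0.16) and Phactr4 (0.17), with a median over all genes of 1.18, and nearest to Batf3 were Fdxr (0.26), Fra10ac1 (0.28) and Ccdc191 (0.28), with a median of 0.93. These are likenesses of level over 10 libraries in which age and library kit cannot be told apart, and carry no test. Depth differed among these libraries and was lowest in P5 CD11c+ replicate 2 (2619610 counts).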

How the data were processed

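RNA was purified with the RNeasy Plus Universal Mini kit, per the labels' protocols. The deposited values are whole-number read counts for each gene, not normalized by the authors. The submitters' processing notes list Trimmomatic 0.36 and STAR 2.5.2b, and also Subread 1.5.2; the build, the strand setting and the treatment of multiply mapped reads are not given in the sources used here. Symbols came from GENCODE M21 (GRCm38) for 48970 of 49315 identifiers, and 44772 of these (91.4%) had its start and end; coordinates of genes are those of the count files; 0 columns were left unused. Within groups every pair of libraries differed by more than sampling noise (chi-square per degree of freedom 28.3 or more); pairs across groups were not compared.

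Libraries of each age were fitted separately in edgeR 4.0.16 (quasi-likelihood F-test, R 4.3.3) after filterByExpr and TMM scaling. Benjamini-Hochberg adjustment ran over all genes tested, with a threshold of 0.05. Every adjusted p not credited to another tool is from this test, which was tried on simulated data. The simulated libraries had a fixed spread and none stood apart, so that trial does not cover P5 with CD11c+ replicate 2. DESeq2 1.42.0 and limma 3.58.1 (voom) were alternatives. Fold changes are log2, CD11c+ over CD11c-. CPM and TPM were computed from the deposited counts, with the gene lengths in those files. Intervals and limits for few counts cover counting error only.

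The members and the 20 gene lists, all of whose 246 entries were matched, were chosen with earlier results of these data known. Named were the members, Itgax, Mgl2, up to 4 genes with the smallest p from each dendritic cell, ligand, factor or class II list, up to 4 genes with the highest mean CPM from other lists, and the 3 genes nearest in profile to each of the 3 most abundant members. Genes named outside this rule were picked after their values were seen.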

Additional observations from a re-analysis of the deposited data

How the results depend on the processing

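The alternatives were DESeq2 size factors, no low-count filter, DESeq2, limma-voom, a replicate block, scaling to homeostatic microglia markers, 1 fit of all 10 libraries, and leaving out each library. At P5, 109 of the values for single members kept direction and side of the threshold, 15 lost a call, 3 gained one and 3 reversed; at 9 months these numbers were 92, 8, 3 and 7, and for the difference between ages 139, 0, 6 and 15. Members called at P5 numbered 2 by TMM (beside 46 of 15410 genes higher), 1 with no filter (30 of 34818) and 0 on the homeostatic scale (57 of 15410). With a P5 library left out they numbered 0 to 4. The fit with 4 had 801 of 15841 genes higher, and in those with 0 no gene passed. At 9 months 5 were called by TMM, beside 2333 of 15740 genes higher. In the fit of all 10 libraries 2 were called (Flt3, Irf4 and Ccr7 were lost), beside 280 of 19555 genes higher. For the difference between ages 0 were called by TMM (beside 1.86% of all genes), 2 by DESeq2 (beside 12.1%) and 3 on the homeostatic scale, all lower (beside 30.8%). With a P5 library left out 0 to 2 were called. The fit with 2 was that without P5 CD11c+ replicate 2, beside 19.1% of all genes. Whether the replicate numbers pair the samples is not known. Same-numbered P5 libraries had correlations of deviations from group means of 0.472, 0.00676 and -0.468, and 9-month ones 0.0901. Groups of 2 or 3 cannot decide this, because deviations within a group depend on each other. With the numbers as a block, 0 members were called at P5 (beside 0 of 15410 genes), 5 at 9 months (beside 2490 of 15740 genes higher) and 0 for the difference (beside 0 of 19555).

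On the homeostatic scale the median of all genes moved to 0.44 at P5, -1.33 at 9 months and -2.01 for the difference; DESeq2 size factors moved the last to -0.30. Reversed on it were Mycl at P5 (0.27), then at 9 months Flt3 (-0.39), Clec9a (-0.32), Xcr1 (-0.62), Irf4 (-0.11), Batf3 (-1.05) and Wdfy4 (-1.14), and for the difference Zbtb46 (-2.06), Batf3 (-0.81) and Wdfy4 (-1.62). With each library left out in turn, the values that crossed 0 were Ccr7 (-0.91 to 1.38, below 0 without CD11c+ replicate 3) and Wdfy4 (-0.12 to 0.46, below 0 without CD11c+ replicate 1) at P5, Wdfy4 at 9 months (-0.0087 to 0.53, below 0 without CD11c- replicate 1), and for the difference Zbtb46 (-0.58 to 2.05), Xcr1 (-0.46 to 0.30) and Wdfy4 (-0.15 to 0.65). The Zbtb46 difference was also -0.23 by DESeq2 and by its size factors, and the Xcr1 difference 0.00022 with no filter. Of these, Flt3 and Irf4 at 9 months had been called by TMM, and the others had not. The causes were not tested.

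Depth limits Clec9a, Xcr1 and P5 Ccr7, with fewer than 100 reads in most libraries, and P5 CD11c+ replicate 2, where 3 counts are 1.15 CPM. Replicates varied by a common coefficient of 0.614 at P5, 0.243 without that library, and 0.273 at 9 months.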

Other observations

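The remaining marker lists gave these values. Of 19 homeostatic microglia markers, Csf1r, Cx3cr1 and C1qb among them, 0 passed at P5 (3 fell without CD11c+ replicate 2) and 19 rose at 9 months, with P5 sums of 15597 to 24307 CPM in CD11c+ and 19163 to 34685 CPM in CD11c- libraries. Haematopoietic progenitor markers summed to 389.3 to 399.2 CPM in 9-month CD11c+ and 102.4 to 115.7 CPM in 9-month CD11c- libraries, mostly from Cd34, with means of 381.2 and 89.8 CPM; 1 of 5 tested rose and 2 fell. NK cell markers summed to 12.9 to 24.3 CPM in 9-month CD11c+ and 86.9 to 100.035 CPM in 9-month CD11c- libraries, mostly from Nkg7, with means of 4.36 and 85.9 CPM; 1 of 6 rose and 1 fell. Of 5 plasma cell markers 1 rose and 2 fell at 9 months. Of the T cell markers at 9 months, 2 of 8 rose (Cd4 and Il7r) and 1 fell (Cd3d), and of the B cell markers 2 of 7 rose (Ighm and Ighd) and 3 fell. At P5 none of the NK, progenitor, plasma, T or B cell markers passed. Without P5 CD11c+ replicate 2, 4 of 9 B cell markers fell (list median -2.58), 1 of 5 progenitor markers fell and 1 of 12 T cell markers rose. In that fit 801 of 15841 genes rose and 700 fell, and no NK or plasma cell marker passed.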
